A study of Bos taurus with 28 samples.

Results

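Liver RNA of ketotic and healthy dairy cows was compared for the enzymes of glycolysis, the pentose phosphate pathway, pyruvate dehydrogenase and the tricarboxylic acid (TCA) cycle. The members came from a list of 47 enzyme genes, succinate dehydrogenase left out, and a gene entered if the platform annotation gave it a probe of its own. That held for 37 genes, all of which were measured in enough cows to be tested, among 6958 genes tested in all. HK2, PFKP, ENO3, PKLR, MDH1, DLST, PDHX and DLAT, and IDH1 and IDH3B, which the annotation names only together on 1 probe, are not analysed here.

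The ketotic group held 7 multiparous Holstein cows whose feed was cut from day 5 after calving to 50% of their day 4 intake, until clinical signs of ketosis or day 14. The healthy group held 7 such cows with free access to feed, sampled early after calving. All 14 had passed an examination on day 4 before random assignment, and the label text of the ketotic cows gives day 4 as the start of restriction. Each liver was hybridised on 2 arrays with exchanged dyes against a reference pooled from cattle tissues, and n is 7 cows per group.

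Glycolysis splits glucose into pyruvate in the cytosol. The pentose phosphate pathway branches from it to make NADPH and ribose. Pyruvate dehydrogenase turns pyruvate into acetyl-CoA in mitochondria, and the TCA cycle oxidises that acetyl-CoA. Ruminants absorb little glucose, so their liver mainly makes glucose, running the reversible steps of glycolysis backwards and bypassing the irreversible ones with enzymes of its own. Ketosis is the state in which acetyl-CoA from body fat leaves the liver largely as ketone bodies.

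Values are log2 ratios of liver over reference with each array's median set to 0, so a negative value means a ratio below that of the typical probe, not absence. The hepatocyte markers lay above markers of muscle, fat and connective tissue on 28 of 28 arrays once dyes were turned the same way, and on this basis the direction is called likely. Healthy cow 7 stood apart: its correlations with the rest ran from 0.363 to 0.462, while no other pair of cows fell under 0.716. Counts that change without it are therefore given both ways. Ketotic arrays had a wider spread of log2 ratios, with a median absolute deviation of 0.941 ± 0.124 in ketotic and 0.756 ± 0.0865 in healthy cows (SD, n = 7 each, exact permutation p = 0.00758, adjusted over 2 measures 0.0152). They also had more spots without a usable ratio, 16.5% ± 4.49 in ketotic and 11.9% ± 2.80 in healthy cows (SD, n = 7 each, exact permutation p = 0.0338, adjusted 0.0338).

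Of the 37 enzyme genes 9 fell in ketotic liver (limma, Benjamini-Hochberg adjusted over all genes tested) and 0 rose. They were GPI, TPI1, PGK1, PGAM1 and ENO1 of glycolysis, PGD and TKT of the pentose phosphate pathway, PDHB of pyruvate dehydrogenase and MDH2 of the TCA cycle. Of all genes tested 12.4% fell and 0.92% rose. At an unadjusted p under 0.05, 17 of the 37 were lower and 0 higher. The difference was negative for 35 of 37, against 67.2% of all genes, and the median difference of the 37 was -0.48, against -0.18 over all genes. Without healthy cow 7, 13 of 37 fell, IDH2, IDH3G, SUCLG2 and FH in addition, when 18.4% of all genes fell and 1.5% rose.

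In 6 of the 37 genes every ketotic cow lay below every healthy cow, as in 5.39% of all genes. These were GPI, PGK1, PGAM1, ENO1, PGD and PDHB, the last without a value in healthy cow 7. Cows of a group differed among themselves. Ketotic cow 5 had the lowest ketotic value in 19 of the 37 genes, with the widest spread of log2 ratios (1.14) and the most unusable spots (25.0%) of any cow. Leaving it out gave 10 falls of 37, with 9.85% of all genes falling. Healthy cow 7 had the highest healthy value in 18 genes and the lowest in 7.

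**Figure D1:**
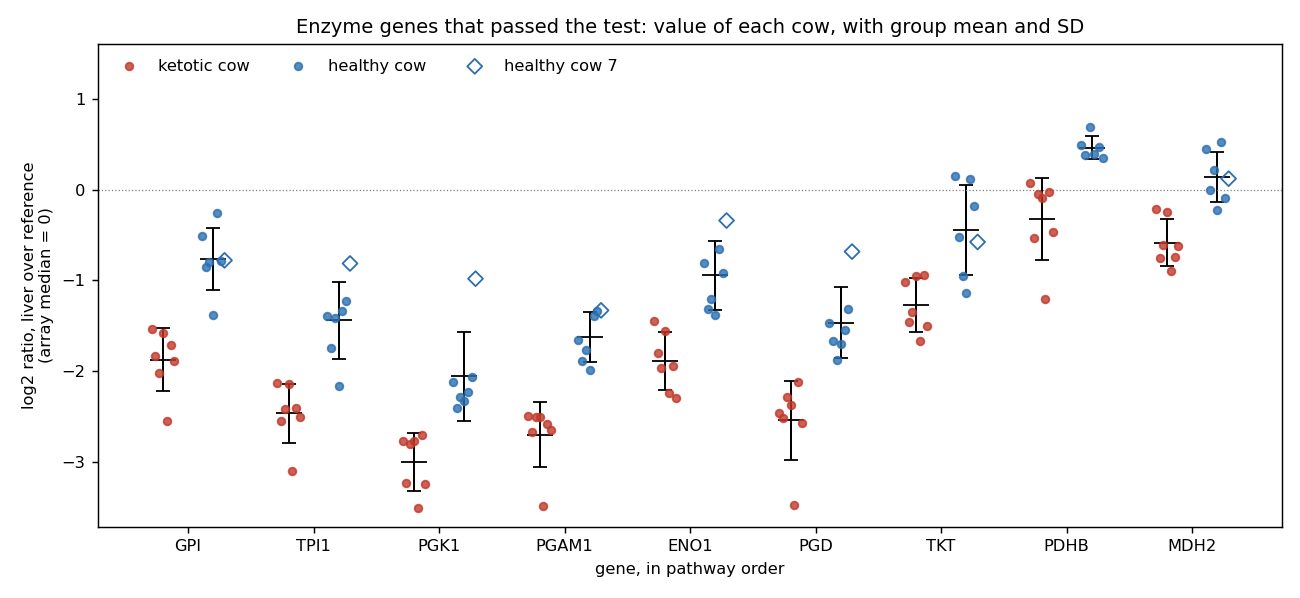
Log2 ratio of liver over reference (y axis, array median at 0) for the 9 enzyme genes that fell, in pathway order, with 1 point per cow, ketotic cows left and healthy cows right in each pair; bars are the mean and SD, and the open diamond is healthy cow 7. The ketotic points lie wholly below the healthy ones for GPI, PGK1, PGAM1, ENO1, PGD and PDHB, and overlap them for TPI1, TKT and MDH2. Healthy cow 7 has no PDHB value.

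Glycolysis had the most falls: 5 of 12 tested genes fell and 0 rose, when 12.4% of all genes fell and 0.92% rose. At an unadjusted p under 0.05, 8 were lower and 0 higher. The median difference was -0.83, and -0.53 without healthy cow 7, when the count was again 5, against 18.4% of all genes. All 12 differences were negative, from -1.10 for GPI to -0.21 for PFKL. GPI and TPI1 act before the ATP-forming steps, and PGK1, PGAM1 and ENO1 in the stretch from 1,3-bisphosphoglycerate to phosphoenolpyruvate.

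HK1, a hexokinase that traps glucose in the cell in most tissues but is not the main form in hepatocytes, had a difference of -0.72 (adjusted p = 0.166), or -0.45 without healthy cow 7. GPI interconverts glucose 6-phosphate and fructose 6-phosphate in both directions of the pathway. Its log2 ratio was -2.54 in the lowest, -1.83 in the median and -1.53 in the highest ketotic cow, against -1.38, -0.78 and -0.26 in healthy cows. No ketotic cow reached the lowest healthy one, and the ketotic mean was 2.15-fold lower (difference -1.10, SE 0.19, limma adjusted p = 0.00336, n = 7 per group).

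Phosphofructokinase commits sugar to glycolysis, and FBP1 opposes it in glucose synthesis. PFKL, its liver form, had a difference of -0.21 (95% interval -0.64 to 0.21, adjusted p = 0.537), with overlapping groups, or -0.03 without healthy cow 7. PFKM, the muscle form, had one of -0.61 (adjusted p = 0.0766), and 4 of 7 ketotic cows lay below every healthy cow. The aldolases, which split fructose 1,6-bisphosphate, did not pass. ALDOA, the general form, had a difference of -0.30 (adjusted p = 0.394) and ALDOC, the brain form, one of -1.04 (adjusted p = 0.201). Healthy cow 7 alone had a positive ALDOC ratio, 0.79, and without it the difference was -0.54 for ALDOC and -0.12 for ALDOA.

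TPI1 interconverts the 2 triose phosphates. Its log2 ratio was -3.10, -2.42 and -2.12 in the lowest, median and highest ketotic cow, against -2.16, -1.39 and -0.81 in healthy cows. The groups touched only at their edges, with 5 of 7 ketotic cows below every healthy cow. The ketotic mean was 2.03-fold lower (difference -1.02, SE 0.20, limma adjusted p = 0.00654).

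GAPDH, which oxidises glyceraldehyde 3-phosphate and is often used as an internal standard, had a difference of -0.46 (95% interval -0.86 to -0.06, adjusted p = 0.125). Its ratio was -1.95, -1.89 and -1.52 in the lowest, median and highest ketotic cow, against -2.03, -1.34 and -0.61 in healthy cows. The healthy range enclosed the ketotic one. The array carried GAPDH on 7 probes, 6 of them the same clone, and the single probes gave differences from -0.51 to -0.36, with adjusted p from 0.116 to 0.262.

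PGK1, which forms ATP from 1,3-bisphosphoglycerate, was likewise on 7 probes, 6 of the same clone. Its ratio was -3.50, -2.80 and -2.70 in the lowest, median and highest ketotic cow, against -2.41, -2.23 and -0.98 in healthy cows. The groups did not overlap, and the highest healthy value was that of healthy cow 7. PGK1 fell 1.92-fold (difference -0.94, SE 0.22, limma adjusted p = 0.0126), and by -0.76 without healthy cow 7 (adjusted p = 0.00413). Over its single probes the difference ran from -1.15, on the other clone, to -0.87, and 6 of 7 probes passed among all probes tested.

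**Figure D2:**
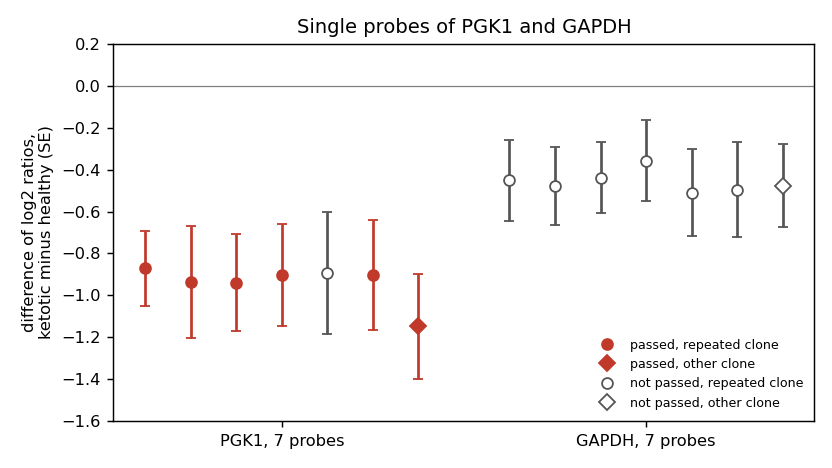
Difference of log2 ratios, ketotic minus healthy (y axis, bars are limma's SE), for each of the 7 probes of PGK1 and the 7 of GAPDH; circles are the clone present 6 times, diamonds the other clone, and filled red symbols passed. PGK1 probes lie between -1.15 and -0.87 and GAPDH probes between -0.51 and -0.36.

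PGAM1, which moves the phosphate of 3-phosphoglycerate, had the smallest p among the 37 genes. Its ratio was -3.48, -2.57 and -2.49 in the lowest, median and highest ketotic cow, against -1.99, -1.65 and -1.33 in healthy cows. The other ketotic cows lay close together, well above ketotic cow 5, and no ketotic cow reached a healthy one. PGAM1 fell 2.10-fold (difference -1.07, SE 0.18, limma adjusted p = 0.00308).

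ENO1, the general enolase, had ratios of -2.30, -1.94 and -1.45 in the lowest, median and highest ketotic cow, against -1.38, -0.91 and -0.34 in healthy cows. The groups did not overlap, and ENO1 fell 1.93-fold (difference -0.94, SE 0.19, limma adjusted p = 0.00732). PKM, the pyruvate kinase of most tissues other than hepatocytes, did not follow. Its difference was -0.42 (95% interval -1.56 to 0.73, adjusted p = 0.664) and 0.14 without healthy cow 7, which alone had a PKM ratio above 0.

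The steps were also read by reversibility, a grouping made after the values were seen. For HK1, PFKL, PFKM and PKM, which code for enzymes of the irreversible steps, 0 of 4 passed, and HK1 and PFKM were lower at an unadjusted p under 0.05. The falls were all in reversible steps, where 5 of 8 genes passed. Of all genes 12.4% fell, and 4 genes are too few to set 0 apart from that share. With arrays scaled to one spread only GPI of the 5 still passed. The difference between these 2 kinds of step was not tested, and the irreversible forms most used by hepatocytes are represented by PFKL alone.

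Lactate dehydrogenase joins pyruvate and lactate. LDHA had a difference of -0.27 (95% interval -0.84 to 0.29, adjusted p = 0.550) and LDHB, its heart form, one of -0.38 (adjusted p = 0.462). For LDHB, with the smaller p, ratios were -1.35, -0.12 and 0.58 in the lowest, median and highest ketotic cow, against -1.26, 0.25 and 0.63 in healthy cows. The ranges overlapped nearly throughout, while 6 of 7 ketotic cows lay below the healthy mean. The lowest healthy LDHB value was that of healthy cow 7, and the other healthy cows lay at 0.094 or above. Without healthy cow 7 the difference was -0.61 (adjusted p = 0.105).

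Of 3 genes of fructose entry and the fructose 2,6-bisphosphate signal 0 passed by limma, and 0 did at an unadjusted p under 0.05. PFKFB1, the liver enzyme that makes and breaks fructose 2,6-bisphosphate, had a ratio of 4.46, 4.84 and 5.38 in the lowest, median and highest of 6 ketotic cows, against 3.74, 4.44 and 5.25 in 6 healthy cows. Every ketotic cow with a value was above the healthy mean, but the difference of 0.42 did not pass (95% interval -0.11 to 0.95, adjusted p = 0.286). It was one of 2 positive differences among the 37 genes and turned to -0.31 with arrays scaled to one spread. KHK, the ketohexokinase of fructose use, had a difference of -0.11 (adjusted p = 0.793), and PFKFB3, a widely expressed form of the fructose 2,6-bisphosphate enzyme, one of -0.36 (adjusted p = 0.578), or -0.07 without healthy cow 7.

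In the pentose phosphate pathway 2 of 6 genes fell and 0 rose, when 12.4% of all genes fell and 0.92% rose. The counts were the same without healthy cow 7, when 18.4% of all genes fell. All 6 differences were negative, with a median of -0.37. PGD, the 6-phosphogluconate dehydrogenase that yields NADPH, had ratios of -3.47, -2.46 and -2.12 in the lowest, median and highest ketotic cow, against -1.88, -1.55 and -0.68 in healthy cows. Ketotic and healthy cows did not overlap. PGD fell 2.10-fold (difference -1.07, SE 0.22, limma adjusted p = 0.00732).

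TKT, the transketolase that returns sugars to glycolysis, had ratios of -1.66, -1.35 and -0.94 in the lowest, median and highest ketotic cow, against -1.14, -0.53 and 0.14 in healthy cows. The ranges overlapped slightly, with all 7 ketotic cows below the healthy mean. TKT fell 1.77-fold (difference -0.82, SE 0.22, limma adjusted p = 0.0227). The other steps lay nearer to the median of all genes. PGLS, the lactonase before PGD, had a difference of -0.24 (adjusted p = 0.265) and TALDO1, the transaldolase, one of -0.25 (adjusted p = 0.331). The pentose isomerase RPIA had one of -0.36 (adjusted p = 0.336) and the epimerase RPE one of -0.38 (adjusted p = 0.258, with values in 5 ketotic and 6 healthy cows).

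Pyruvate dehydrogenase was represented by its first, decarboxylating component. PDHB, the beta subunit, fell 1.73-fold (difference -0.79, SE 0.20, limma adjusted p = 0.0197). Its ratio was -1.20, -0.09 and 0.07 in the lowest, median and highest ketotic cow, against 0.34, 0.43 and 0.69 in 6 healthy cows, healthy cow 7 having no value. All ketotic cows lay below all healthy cows with a value. When either array of a cow sufficed for a value, PDHB no longer passed. The pyruvate dehydrogenase median was then -0.34, against -0.52 with both arrays required. PDHA1, the alpha subunit that pyruvate dehydrogenase kinases phosphorylate, had a difference of -0.25 (95% interval -0.70 to 0.20, adjusted p = 0.470) on the 1 of its 2 probes with enough cows. Its lowest healthy value came from healthy cow 7, without which the difference was -0.41 (adjusted p = 0.0980).

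In the TCA cycle 1 of 12 genes (8.33%) fell and 0 rose, against 12.4% of all genes lower and 0.92% higher. At an unadjusted p under 0.05, 6 were lower. The median difference was -0.50 with or -0.49 without healthy cow 7, when 5 of 12 fell, against 18.4% of all genes. MDH2, the mitochondrial malate dehydrogenase, had ratios of -0.89, -0.62 and -0.22 in the lowest, median and highest ketotic cow, against -0.23, 0.12 and 0.52 in healthy cows. All but 1 of the 7 ketotic cows lay below every healthy cow. MDH2 fell 1.65-fold (difference -0.72, SE 0.16, limma adjusted p = 0.0106).

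The steps from citrate to 2-oxoglutarate were mixed. CS, the citrate synthase, had a difference of -0.72 (adjusted p = 0.143) and ACO1, the cytosolic aconitase and iron sensor, one of -0.50 (adjusted p = 0.249). Both were smaller without healthy cow 7, at -0.45 and -0.23. IDH2, the mitochondrial NADP-dependent isocitrate dehydrogenase, had one of -0.55 (adjusted p = 0.0534) and IDH3G, a regulatory subunit of the NAD-dependent enzyme, one of -0.48 (adjusted p = 0.0588). In both, 5 of 7 ketotic cows lay below every healthy cow, and both passed without healthy cow 7 (adjusted p = 0.0456 and 0.0319). IDH3A, the catalytic subunit of the same NAD-dependent enzyme, had a difference of only -0.13 (adjusted p = 0.786).

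From 2-oxoglutarate to malate no gene passed limma with all cows, and SUCLA2 and FH were lower at an unadjusted p under 0.05. OGDH, the first component of 2-oxoglutarate dehydrogenase, had a difference of -0.46 (adjusted p = 0.249). DLD, the component it shares with pyruvate dehydrogenase, had 0.04 (adjusted p = 0.935), or -0.17 without healthy cow 7. Of succinyl-CoA ligase, SUCLG1, the shared subunit, had a difference of -0.32 (adjusted p = 0.286), SUCLG2, the GTP-forming subunit, -0.51 (adjusted p = 0.389), and SUCLA2, the ATP-forming one, -1.36 (adjusted p = 0.156). SUCLG2 was -0.88 in healthy cow 7 and 1.23 or more in the other healthy cows, and fell without it (difference -0.86, adjusted p = 0.00582). SUCLA2 had the most negative difference of the 37 genes and the widest interval, -2.66 to -0.06, with ketotic cow 5 at -5.90. FH, the fumarase, had a difference of -0.72 (adjusted p = 0.0662) and fell without healthy cow 7 (adjusted p = 0.00927).

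**Figure D3:**
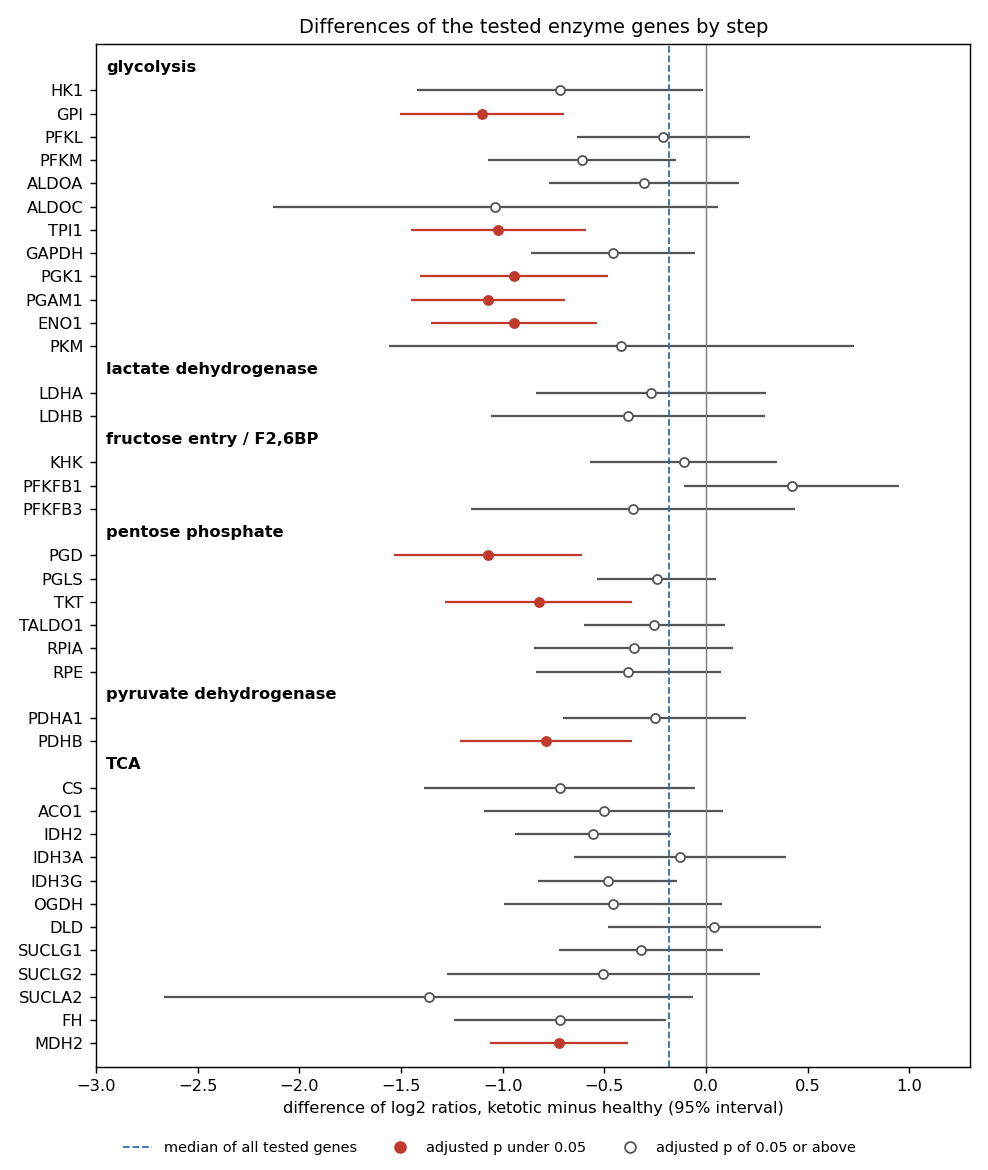
Difference of log2 ratios, ketotic minus healthy (x axis), of the 37 tested enzyme genes by step, with 95% intervals; filled red points passed, and the dashed line is the median of all tested genes, -0.18. Glycolytic differences reach -1.10, and 35 of 37 points lie left of 0.

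The 4 pathways differed in how their genes stood to the reference. Of the 12 glycolytic genes 11 had a mean ratio below 0, as had 5 of 6 pentose phosphate, 0 of 2 pyruvate dehydrogenase and 5 of 12 TCA genes. The pathway median differences did not follow these counts throughout, at -0.83, -0.37, -0.52 and -0.50 in the same order. Over all genes tested, 17.6% of those with a mean ratio below 0 fell, against 5.65% of those at 0 or above. Among the enzyme genes these were 8 of 24 and 1 of 13. Difference and mean ratio correlated across the 6958 genes at Pearson r = 0.364 (Spearman rho = 0.403) and across the 37 at r = 0.531 (rho = 0.366). Genes are not independent, and both quantities come from the same arrays. The part of the wider spread of ketotic arrays in the falls was not tested beyond the scaling to one spread given next.

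**Figure D4:**
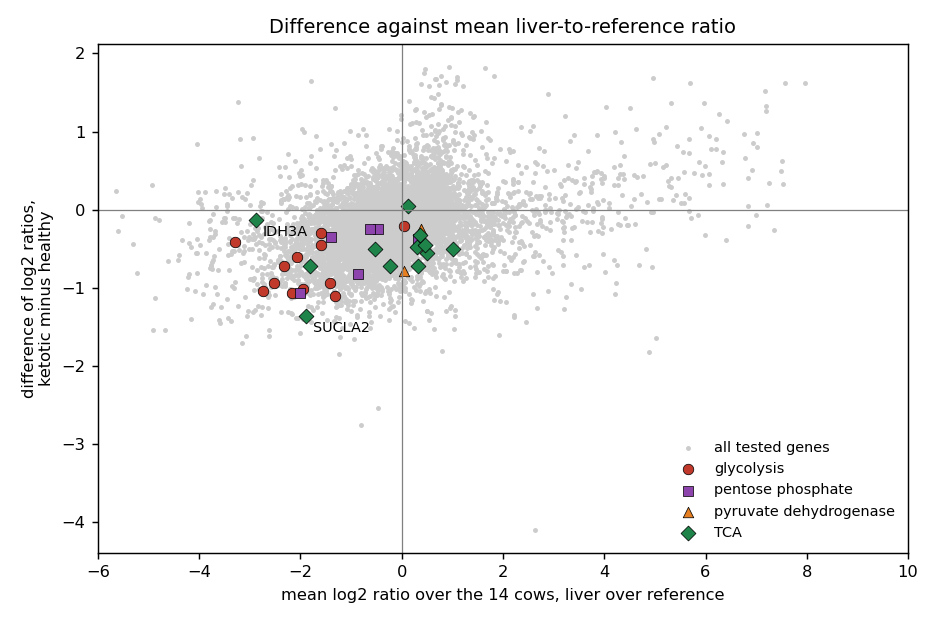
Difference of log2 ratios, ketotic minus healthy (y axis), against the mean log2 ratio over the 14 cows (x axis); grey points are all 6958 tested genes and coloured symbols the enzymes of 4 pathways. Glycolytic genes lie left of 0 on the x axis in 11 of 12 cases, and 7 of 12 TCA genes lie at or right of it.

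When arrays were scaled to one spread, the glycolytic calls thinned and the mitochondrial ones did not. Glycolysis then had 1 fall, GPI (difference -0.80, adjusted p = 0.0245), and a median of -0.34. PGAM1 (-0.59, adjusted p = 0.0695), ENO1 (-0.63, 0.0766), TPI1 (-0.59, 0.137) and PGK1 (-0.41, 0.302) no longer passed. PGD (-0.63, adjusted p = 0.0551) and TKT (-0.61, 0.127) did not either. PDHB (-0.77, adjusted p = 0.0153) and MDH2 (-0.68, 0.0182) passed again, and IDH2 (-0.64, 0.0335) and IDH3G (-0.53, 0.0410) joined them. That made 5 falls of 37, against 7.4% lower and 0.503% higher of all genes. Centred on the probes present on every array, 9 of 37 fell, against 7.09% of all genes. Under one spread the pathway medians were -0.34 for glycolysis, -0.29 for pentose phosphate, -0.53 for pyruvate dehydrogenase and -0.53 for TCA genes, against -0.15 over all genes.

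**Figure D5:**
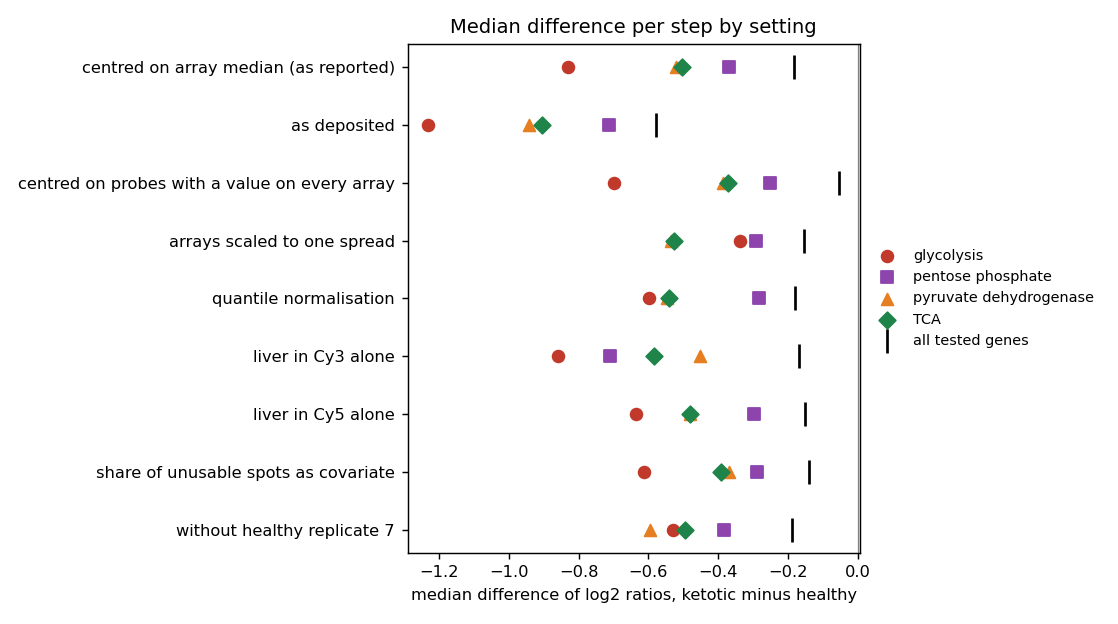
Median difference of log2 ratios, ketotic minus healthy (x axis), for the tested genes of 4 pathways (symbols) and for all tested genes (bar), under 9 ways of scaling or fitting (rows). The glycolytic median is -0.83 as reported and -0.34 with arrays scaled to one spread, while the TCA median is -0.50 and -0.53.

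The dye orientations gave the same direction for most genes but not the same number of calls. With the liver in Cy3 alone 9 of 37 fell (8.73% of all genes), and with the liver in Cy5 alone 0 did (0.144% of all genes), with 12 lower there by limma at an unadjusted p under 0.05. Differences were negative for 34 of 37 genes with either dye. PGAM1 had a difference of -1.13 with the liver in Cy3 and -1.01 in Cy5, GPI -1.19 and -1.02, and MDH2 -0.61 and -0.84. The 9 in Cy3 were not the same genes: 7 were, MDH2 (adjusted p = 0.0823) and PDHB (0.0875) did not pass, and PFKM (0.0196) and RPE (0.0109) did. The 9 thus held no TCA or pyruvate dehydrogenase gene, and 18 of 37 genes were lower in Cy3 by limma at an unadjusted p under 0.05. With the share of unusable spots as a covariate 2 of 37 fell, GPI and PGAM1, against 2.3% of all genes.

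Neighbouring genes of the same pathways were read from lists chosen with earlier results of these data known. The counts of these lists are to be read beside all genes tested. Of those 12.4% fell and 0.92% rose, or 18.4% and 1.5% without healthy cow 7. Of 10 other glycolytic and pentose phosphate genes 2 fell. DERA, the deoxyribose phosphate aldolase, fell 2.04-fold (difference -1.03, adjusted p = 0.0175), and PGM1, which joins glucose 1-phosphate to glucose 6-phosphate, 1.66-fold (-0.73, 0.0365). Both passed with arrays scaled to one spread, and RBKS also fell without healthy cow 7 (-0.49, 0.0310). Of 7 other TCA genes 4 fell, SDHC (-1.05, adjusted p = 0.00989), SDHAF2 (-0.60, 0.0204), NNT (-0.73, 0.0231) and SDHB (-0.76, 0.0275), named after its values were seen to complete the count. SDHC and SDHB are subunits of succinate dehydrogenase, SDHAF2 its assembly factor, and NNT the mitochondrial transhydrogenase that makes NADPH. SDHAF2 and NNT had values in 7 ketotic and 6 healthy cows. With one spread SDHAF2 did not pass (adjusted p = 0.0663), and SDHC, SDHB and NNT did. Without healthy cow 7, 6 of 7 fell, SDHA (-0.48, 0.0480) and SDHD (-0.55, 0.0355) in addition.

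Pyruvate entry into mitochondria and its control gave 2 falls among 6 genes. MPC2, a subunit of the mitochondrial pyruvate carrier, had ratios of -0.69, -0.11 and 0.43 in the lowest, median and highest ketotic cow, against 0.24, 0.91 and 1.11 in healthy cows. It fell 1.76-fold (difference -0.81, limma adjusted p = 0.0152), also with arrays scaled to one spread. MPC1, the other subunit of the carrier, had a difference of 0.04 (adjusted p = 0.919). PDK3, a kinase that turns pyruvate dehydrogenase off, fell 2.34-fold (difference -1.23, adjusted p = 0.0334, or 0.119 with one spread). It had values in 5 ketotic and 7 healthy cows. PDK4, a kinase known to rise in fasting in many tissues, had ratios of 1.86, 2.51 and 2.71 in ketotic cows, against 0.63, 2.02 and 3.24 in healthy cows. Its difference of 0.39 did not pass (95% interval -0.26 to 1.05, adjusted p = 0.434) and was 0.15 without healthy cow 7.

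Of 6 tested genes listed for the bypass steps of glucose synthesis 1 rose and 1 fell. FBP1, fructose bisphosphatase, had ratios of 5.37, 5.96 and 6.21 in the lowest, median and highest ketotic cow, against 1.74, 4.30 and 5.11 in healthy cows. The groups did not overlap, with FBP1 3.20-fold higher in ketotic liver (difference 1.68, adjusted p = 0.0147). The lowest value was that of healthy cow 7, without which the difference was 1.28 (adjusted p = 0.00161). With one spread it was 0.73 (adjusted p = 0.325). PC, pyruvate carboxylase, had a difference of 0.79 (adjusted p = 0.0685) and PCK1, which makes phosphoenolpyruvate, 0.60 (adjusted p = 0.294), with 0.31 without healthy cow 7 and -0.68 with one spread. G6PC3, the widely expressed glucose 6-phosphatase, fell 1.48-fold (-0.57, adjusted p = 0.0352; 0.196 with one spread). G6PC1, the other glucose 6-phosphatase gene of the list, was not among the genes tested. With all cows FBP1 and G6PC3 were the only calls among 6 genes. Without healthy cow 7, whose PC ratio was 0.88, PC was called higher too (difference 0.55, adjusted p = 0.0404). With all cows and one spread PC had a difference of 0.26 (adjusted p = 0.663).

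Among 8 glycogen genes PHKB, a subunit of phosphorylase kinase, alone fell (difference -0.72, adjusted p = 0.0119). That is 12.5% of these genes, against 12.4% of all genes. Without healthy cow 7 PYGB, the brain form of glycogen phosphorylase, was called higher as well (0.44, 0.0481). Sugar entry and the shuttles of malate, citrate and glycerol phosphate had 0 calls by limma in 10 genes each, with 2 lower and 1 higher, and 2 lower and 0 higher, at an unadjusted p under 0.05. SLC2A1, a glucose transporter of most tissues, had the smallest p of the first list (-0.80, adjusted p = 0.0641), and ACLY, which makes cytosolic acetyl-CoA from citrate, of the second (-0.98, 0.0708). Without healthy cow 7, GLUD1 (-1.16, adjusted p = 0.00488) and GOT2 (-0.60, 0.0334) of the shuttle list fell. The genes called only without that cow are named after their values were seen.

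In whole liver, fewer cells of a type and less RNA per cell cannot be told apart. Beside the marker counts, 12.4% of all genes fell and 0.92% rose, or 18.4% and 1.5% without healthy cow 7. Of 8 macrophage markers tested, 3 fell, CD74, LAPTM5 and AIF1. The median over the markers ran from 1.01 to 3.09 in ketotic and from 0.53 to 3.49 in healthy cows. Without healthy cow 7 the lowest healthy median was 2.415. Of 6 bile duct markers KRT8 alone fell with all cows. KRT18 (difference -0.54, adjusted p = 0.113), KRT19 (-0.46, 0.452), SPP1 (-0.81, 0.543), CFTR (0.36, 0.641) and EPCAM (-0.04, 0.954) did not pass. Whether the KRT8 RNA came from bile duct cells alone was not tested. The bile duct median ran from -1.94 to -1.37 in ketotic and from -1.53 to -0.52 in healthy cows. Of 4 lymphocyte markers 1 fell and 1 rose, and of 4 neutrophil markers 1 rose. None passed by limma among 12 of stellate cells and fibroblasts, 6 of endothelium, 3 of red blood cells, 3 of fat and 3 of skeletal muscle, where 2, 1, 1, 0 and 1 had an unadjusted p under 0.05. The stellate cell and fibroblast median ran from -3.62 to -2.62 in ketotic and from -3.40 to 0.50 in healthy cows, the highest being healthy cow 7. Without healthy cow 7, C1QB of the macrophage (adjusted p = 0.0388), EPCAM of the bile duct (0.0490), DCN of the stellate cell (0.0409), CFD of the fat (0.00927) and APOB of the hepatocyte markers (0.0412) also fell, and MMP9, the neutrophil marker that rose, was measured in too few cows to be tested. Of 16 hepatocyte markers ALB (difference 1.62, adjusted p = 0.0228) and APOA1 (0.86, 0.0208) were called higher with all cows, but had -0.07 (0.938) and -0.03 (0.972) with arrays scaled to one spread. The median over the hepatocyte markers ran from 5.45 to 6.90 in ketotic and from 3.31 to 7.28 in healthy cows, the lowest being healthy cow 7. The part of these cell types in the falls of the enzyme genes was not tested.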

How the data were processed

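The authors deposited 1 table of processed values, read here from their range and signs as log2 dye ratios, with a row per spot and a column for each of 28 arrays; the scanner and normalisation steps are not given in the sources used here. Values at a ceiling of 16.61 were read as missing, as were empty cells. Direction (Cy5 over Cy3) was set by the dyes in the labels and called likely from marker genes; 1 ketotic array's label fields name the same dye for both channels. Adjacent spots were averaged, the sign was turned where Cy3 marked the liver, each array was centred on its median, and both arrays of a cow were averaged as 1 replicate. A probe needed values in 5 cows of each group. A gene was the mean of its probes, named through the platform annotation and RefSeq's gene table (ARS-UCD2.0); 8645 probes had 1 symbol, of which 8620 matched that table, while 105 had several symbols and 5074 none, and these were not named. Whether a probe also binds RNA of close family members was not tested.

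Groups were compared with limma 3.58.1 (R 4.3.3; lmFit and eBayes, two-sided) over 6958 genes, adjusted by Benjamini-Hochberg at a threshold of 0.05. Intervals are 95% limma intervals. Enzyme genes given in full were those passing, or the one with the smallest p of a step where none passed. Of other lists up to 3 passing genes by smallest p were named, or the gene with the smallest p, plus PDK4, PC, PCK1 and FBP1. The members and lists were chosen with earlier results of these data known. On simulated data for this comparison over 6958 genes, 9.48% of changes of 0.5 (log2), 56.1% of 1 and 89.5% of 2 were recovered, with 2.21% of calls false. The simulated noise was independent between genes, the changes went in both directions, and no shift was shared by many genes. The 2.21% therefore does not cover false calls from such shared shifts in the real arrays. Alternatives covered scaling, dyes, missing values, filters, model and each cow left out. The number of arrays limits the precision. Figures used matplotlib 3.10.9.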

Additional observations from a re-analysis of the deposited data

Results flagged for a closer look

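Single cows far from the rest of their group were looked for in the enzyme genes, the named neighbouring genes and the array quality measures. There were 21 among 110 sets of cow values, and chance alone would give about 1 in 20 (5.5). All but 5 of them concerned healthy cow 7.

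The correlation of healthy cow 7 with its group had a median of 0.408, and the next lowest healthy cow had 0.870. Its log2 ratio lay above those of the other healthy cows for HK1 (-0.33), PFKL (1.20), ALDOA (-0.33), ALDOC (0.79), PGK1 (-0.98), PKM (0.24), PFKFB3 (-0.36), CS (0.17) and ACO1 (1.36). It lay below them for LDHB (-1.26), PDHA1 (-0.42), SUCLG2 (-0.88), FBP1 (1.74), PC (0.88) and DERA (-0.11).

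Ketotic cow 5 lay below the other ketotic cows for PGAM1 (-3.48), PGD (-3.47), SUCLA2 (-5.90) and DERA (-1.74), and ketotic cow 7 for PC (2.43).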

How the results depend on the processing

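With arrays scaled to one spread, 1 of the 37 enzyme genes was higher by limma at an unadjusted p under 0.05. By adjusted p the 37 enzyme genes had no rise under any setting tried. Their 9 calls became 25 with values as deposited, 5 with arrays scaled to one spread, 2 with the share of unusable spots as a covariate and 0 with the liver in Cy5 alone; leaving out 1 cow gave 9 to 13, the highest without healthy cow 7. Over all genes 929 calls became 2477 as deposited, 616 (123 of them higher, against 64 of 929) with arrays centred on the 7426 probes present on every array, 550 with one spread, 562 with quantile normalisation, 12 in Cy5 alone, 168 with the covariate and 1435 with cow weights, and 652 to 1368 with 1 cow left out. Values as deposited moved the median of all genes to -0.58, and the medians to -1.23 for glycolysis, -0.71 for pentose phosphate, -0.94 for pyruvate dehydrogenase and -0.90 for TCA genes. The glycolytic median was -0.34 with one spread, and the pentose phosphate median -0.71 in Cy3 alone and -0.60 with ceiling values kept. With 1 cow left out the medians ran from -0.89 to -0.53 for glycolysis, -0.47 to -0.28 for pentose phosphate, -0.60 to -0.39 for pyruvate dehydrogenase, -0.56 to -0.47 for TCA genes, -0.46 to -0.16 for lactate dehydrogenase and -0.22 to -0.00018 for fructose entry.

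None of the 9 called genes changed sign under any of the alternatives. The enzyme genes that did, and PCK1 and PDK4, none of them called, had the following differences. With one spread ALDOA had 0.024, IDH3A 0.52, LDHA 0.34, PKM 0.22, PFKFB3 0.085, PFKFB1 -0.31 and PCK1 -0.68; of the called hepatocyte markers ALB had -0.07 and APOA1 -0.03. With quantile normalisation IDH3A had 0.18 and LDHA 0.020. Centred on common probes IDH3A had 0.0033 and KHK 0.021. With the covariate DLD had -0.067, IDH3A 0.036, PFKFB3 0.099 and PKM 0.077. As deposited DLD had -0.36 and PDK4 -0.0010, with cow weights DLD had -0.13, in Cy3 alone IDH3A had 0.093, and in Cy5 alone RPE had 0.27. With 1 cow left out DLD ran from -0.17 to 0.13, IDH3A from -0.32 to 0.012 (without ketotic cow 2) and PKM from -0.62 to 0.14 (without healthy cow 7). The causes were not tested. No paired analysis was possible because the cow numbers only name animals and pair none across the groups.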
